A study of Mus musculus with 8 samples.

Results

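Across 8 arrays of mouse tail-tip fibroblasts, 10 genes of the extracellular matrix were followed, namely the fibulins Fbln1, Fbln2 and Fbln5, the tenascins Tnc and Tnn, the thrombospondin Thbs1, the spondin Spon1, and Postn, Sparc and Fn1. They were taken by their symbol in the array annotation, where each has 1 transcript cluster (the set of probes for 1 gene), and are 10 of the 19505 symbols named on the array. Among these fibulins, tenascins and matricellular proteins, Fn1 is the exception in kind, since it encodes fibronectin, a fibre protein to which several of the others bind.

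Matricellular proteins are secreted into the matrix but mostly do not build it. They bind fibres, integrins, proteases and growth factors, and they are made in bulk by fibroblasts of healing wounds and scars. Fibulins connect elastic fibres, basement membranes and fibronectin. Several of the genes, Postn, Tnc and Fn1 among them, are known targets of TGFb, the growth factor that drives scar formation.

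All cells were postnatal tail-tip fibroblasts (TTFs) carrying retroviruses for GHMT, the factors Gata4, Hand2, Mef2c and Tbx5, which together can push fibroblasts towards a heart muscle fate. Cells without the viruses were not among the samples, so the controls carry GHMT too. Vehicle (DMSO) or a compound was given together with the viruses, in medium with fetal bovine serum. TTF set 1 gave 4 arrays, for GHMT with vehicle, with diclofenac (a drug that blocks cyclooxygenases and so prostaglandin synthesis), with an antagonist of EP4, which is a receptor of prostaglandin E2 (PGE2), and with diclofenac plus PGE2. TTF set 2 gave 4 arrays, for GHMT with vehicle, with the EP4 antagonist, with a TGFb inhibitor and with a Wnt inhibitor. GHMT and the EP4 antagonist thus had 2 arrays each and the other 4 groups 1 each. Doses, harvest time, and the names of the antagonist and of the TGFb and Wnt inhibitors were not given in the sources used. Nothing in the labels tells whether replicates come from separate experiments, so a p-value here reflects the spread of these samples only, which may be technical. All values are log2 expression values, on which a step of 1 is a 2-fold change.

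Between 43.7% and 45.7% of the 22206 transcript clusters of an array lay above its background level, taken as the 95th percentile over 23 background probe sets (5.73 to 5.99 on the log2 scale). The number of arrays limits the precision. Of the transduced factors, Hand2, Mef2c and Tbx5 were above background everywhere and the Gata4 cluster nowhere, and it is not known whether its probes detect the viral Gata4. Of 9 fibroblast markers matched on the array, 8 were above background on all 8 arrays. The 6 macrophage and leukocyte, 6 endothelial and 6 keratinocyte markers and the 3 Schwann cell markers were at background on every array. Other lists were not wholly at background. Acta1 and Ckm of 6 skeletal muscle markers and Sox9 of 5 cartilage and bone markers were above it on all 8 arrays. Fabp4 of 5 adipocyte markers was above it on 4 arrays. In bulk RNA, fewer cells of a type and less RNA per cell cannot be told apart.

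The promoters of Fbln1, Fbln2 and Postn are shown because Fbln1 was the member that passed the test for blocked PGE2-EP4 signalling, while Fbln2 and Postn were 2 of the members at least 2-fold below GHMT with the TGFb inhibitor. The sequences are from RefSeq on GRCm38.p6, all on the plus strand, and hold the 250 bases before a start site. Capitals mark CAGAC, the letters of a Smad-binding motif, or their reverse complement GTCTG. Smads are the transcription factors that TGFb receptors activate. Fbln1 has 2 overlapping windows in RefSeq, of which the upstream one is shown, and Postn has 2 start sites.
Fbln1, chr15:85205699-85205948: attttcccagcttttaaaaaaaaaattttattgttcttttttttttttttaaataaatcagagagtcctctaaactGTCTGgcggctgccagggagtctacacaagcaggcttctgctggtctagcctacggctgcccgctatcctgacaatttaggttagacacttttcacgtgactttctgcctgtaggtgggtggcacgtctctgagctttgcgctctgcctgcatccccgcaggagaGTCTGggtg
Fbln2, chr6:91212514-91212763: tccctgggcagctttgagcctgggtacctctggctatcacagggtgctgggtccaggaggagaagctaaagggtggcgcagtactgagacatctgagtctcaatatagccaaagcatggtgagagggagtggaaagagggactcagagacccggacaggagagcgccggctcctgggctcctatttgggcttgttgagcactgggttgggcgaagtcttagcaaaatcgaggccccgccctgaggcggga
Postn, upstream start site, chr3:54359017-54359266: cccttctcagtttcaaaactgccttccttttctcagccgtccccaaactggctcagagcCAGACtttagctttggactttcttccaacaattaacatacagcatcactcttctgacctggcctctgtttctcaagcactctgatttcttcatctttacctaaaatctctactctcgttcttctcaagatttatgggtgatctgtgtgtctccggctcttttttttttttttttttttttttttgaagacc
Postn, downstream start site, chr3:54360857-54361106: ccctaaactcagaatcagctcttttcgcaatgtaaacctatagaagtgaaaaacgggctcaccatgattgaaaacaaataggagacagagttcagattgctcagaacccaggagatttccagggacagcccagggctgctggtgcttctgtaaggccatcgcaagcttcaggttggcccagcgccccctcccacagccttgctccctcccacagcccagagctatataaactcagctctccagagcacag
The Fbln1 window held the marked letters 2 times, the upstream Postn window 1 time, and the Fbln2 and downstream Postn windows not at all.

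RefSeq windows of 300 bases (250 before and 50 after a start site) were matched for 7 of the 10 genes, 11 windows in all, the exceptions being Thbs1, Fn1 and Spon1. Searched on both strands, CAGAC was in 8 of the 11 windows (5 of the 7 genes: Fbln1, Fbln5, Postn, Sparc and Tnc) and in 49.6% of all 32851 windows of the table. The Fbln1 windows overlap and hold the same matches, and the Tnc windows overlap and share a match. The count of 8 thus holds some letters more than once. TGACG, which is contained in the cAMP response element TGACGTCA, was in both Fbln5 windows and in 20.8% of all windows. The letters TGACGTCA (1.79% of all windows), the palindromic Smad element GTCTAGAC (0.213%), the TCF/LEF element CTTTGAT (3.73%), through which Wnt signals act, and the AP-1 element TGACTCA (5.20%) were in none of the 11. A match is a description of letters, not of a bound site.

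Fbln1, a fibulin of elastic fibres and basement membranes, was low wherever PGE2-EP4 signalling was blocked, in both sets. In set 1 it was at 13.50 with GHMT and 13.17 with diclofenac plus PGE2, against 11.81 with diclofenac and 11.68 with the EP4 antagonist. In set 2 it was at 12.75 with GHMT, 12.65 with the TGFb inhibitor and 13.30 with the Wnt inhibitor, against 10.40 with the EP4 antagonist. The 3 blocked arrays were thus the lowest 3 of the 8 and did not overlap with the other 5. Adding PGE2 to diclofenac left Fbln1 higher than diclofenac alone by 1.36 (2.57-fold), and its difference from GHMT was -0.33.

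**Figure D1:**
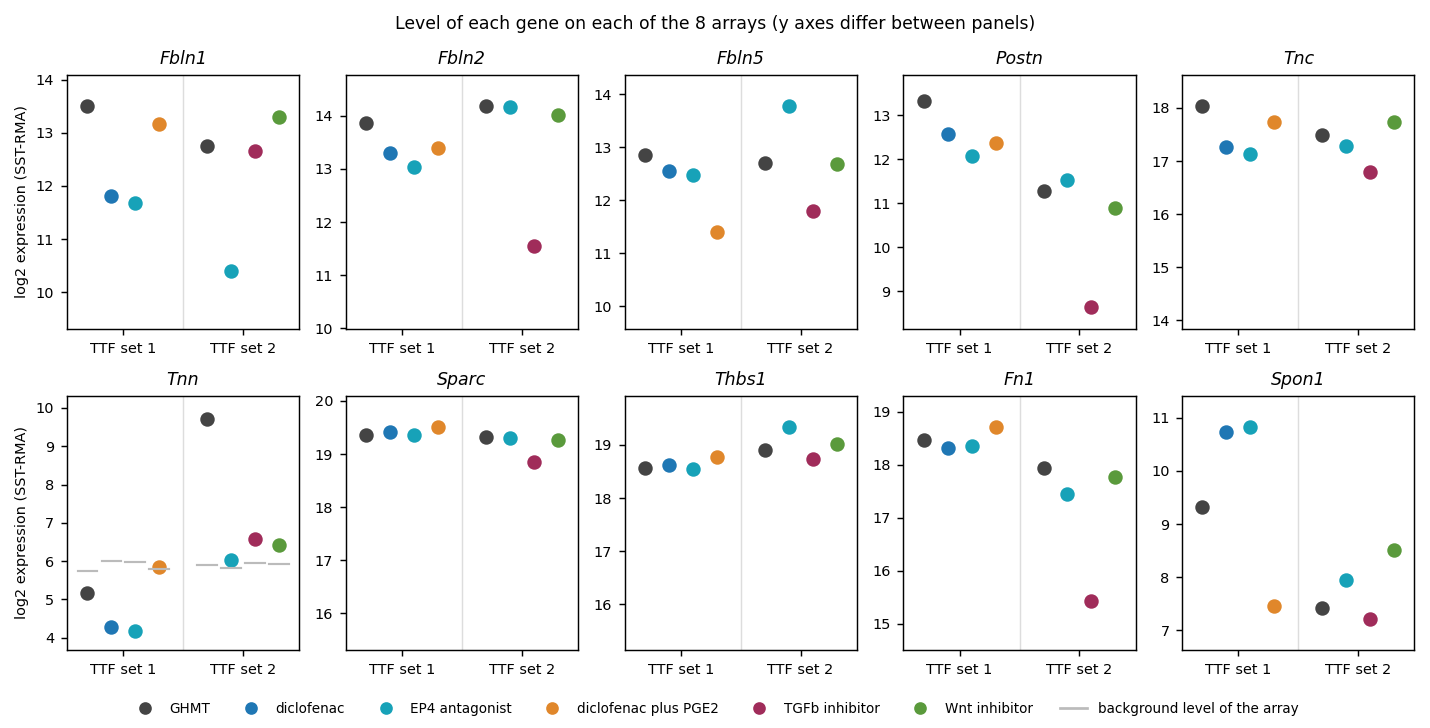
Log2 expression (y axis, SST-RMA values, a different range in each panel) of the 10 genes on the 8 arrays, with TTF set 1 on the left and set 2 on the right of each panel, 1 point per array and the colour giving the treatment. The 3 arrays with diclofenac or the EP4 antagonist are the lowest for Fbln1, the TGFb inhibitor array is the lowest for Fbln2, Postn and Fn1, and grey lines give the background levels in the Tnn panel, where 3 points of set 1 lie below them.

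The test of this pattern set 3 blocked arrays (diclofenac and both EP4 antagonist arrays) against 3 active ones (both GHMT arrays and diclofenac plus PGE2), by limma with the TTF set as a block. The arms pool different treatments, so the residual spread includes differences between them. Fbln1 fell by 1.84 ± 0.20 on the log2 scale (SE, 95% interval -2.28 to -1.41, 3.59-fold, adjusted p = 0.00982 by limma), the 7th smallest p of all transcript clusters. It was the 1 member called, where 0.378% of all clusters (84) were called and 0.122% were called lower. Without the block the difference was the same with an SE of 0.39 (adjusted p = 0.9 by limma), and 0 clusters were called, with 469 at an unadjusted p under 0.05. With the block kept, the call was also lost without diclofenac (adjusted p = 0.0735 by limma), without EP4 antagonist replicate 1 (0.0991) or without either array of set 2 (0.0946), while the difference stayed between -2.01 and -1.59. Over every alternative run, with and without the block, the adjusted p ran from 0.000815 to 1 (limma).

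Levels of fibroblast markers are given beside Fbln1. The mean level of the 9 matched markers was 14.40 with GHMT and 14.14 with diclofenac plus PGE2 in set 1, against 13.54 with diclofenac and 13.45 with the EP4 antagonist. In set 2 it was 13.82 with GHMT, 13.75 with the TGFb inhibitor and 14.15 with the Wnt inhibitor, against 13.46 with the EP4 antagonist. In set 1 all 9 lay below GHMT with diclofenac and with the antagonist. In set 2 the antagonist had 6 below, with Dcn (-1.70) and Lum (-1.61) the lowest, and 3 above, among them Pdgfrb (0.72). The mean of 10 cardiomyocyte markers, 4 of them at background on all arrays, ran from 8.15 to 8.97 on the active arrays and from 9.36 to 10.15 on the blocked ones. It was also high with the TGFb inhibitor (9.60) and the Wnt inhibitor (9.70), where Fbln1 was not low. The part of either in the Fbln1 result was not tested.

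The other fibulins did not share the pattern to the same degree. Fbln2, which links elastic fibres to basement membranes, was at 13.86, 13.30, 13.04 and 13.40 in set 1 for GHMT, diclofenac, the EP4 antagonist and diclofenac plus PGE2. The set 2 values were 14.18 with GHMT, 14.16 with the EP4 antagonist and 14.02 with the Wnt inhibitor. Its blocked arrays lay below the active ones in each set, but with a difference of only -0.02 in set 2, and the fitted difference was -0.31 ± 0.19 (SE, 95% interval -0.73 to 0.10, adjusted p = 0.725 by limma).

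Fbln5, needed for the assembly of elastic fibres, went apart between the sets. In set 1 it was at 12.86 with GHMT, 12.56 with diclofenac, 12.47 with the EP4 antagonist and 11.41 with diclofenac plus PGE2, which was the lowest of all 8 arrays. Set 2 had 12.70 with GHMT, 13.77 with the EP4 antagonist, 11.80 with the TGFb inhibitor and 12.68 with the Wnt inhibitor. The EP4 antagonist array of set 2 was thus the highest of the 8, 2.10-fold above its GHMT array, whereas the antagonist array of set 1 was at -0.39 from its own. Over both sets the blocked arms were at 0.61 ± 0.32 above the active ones (SE, 95% interval -0.11 to 1.33, adjusted p = 0.67 by limma). Without GHMT replicate 1 that difference was 1.09 and passed (adjusted p = 0.0197 by limma, the lowest of its alternatives, which ran up to 1).

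Tnc, tenascin C, a large protein of healing tissue that loosens cell adhesion, was lower in the blocked arrays by a smaller step. It was at 18.03, 17.27, 17.14 and 17.74 in set 1 for GHMT, diclofenac, the EP4 antagonist and diclofenac plus PGE2, and at 17.49 and 17.28 in set 2 for GHMT and the EP4 antagonist. The arms did not overlap within either set, and the fitted difference was -0.52 ± 0.17 (SE, 95% interval -0.90 to -0.14, adjusted p = 0.358 by limma), which did not pass over all clusters.

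Tnn, tenascin N (also called tenascin W), was close to background. In set 1 it was at 5.16 with GHMT, 4.29 with diclofenac and 4.17 with the EP4 antagonist, all under the background level, and at 5.85 with diclofenac plus PGE2, just above that array's level of 5.80. In set 2 it was at 9.72 with GHMT, 6.02 with the EP4 antagonist, 6.58 with the TGFb inhibitor and 6.42 with the Wnt inhibitor. The GHMT array of set 2 therefore stood alone, 13-fold above the EP4 antagonist, 8.82-fold above the TGFb inhibitor and 9.85-fold above the Wnt inhibitor. All 3 of these contrasts share that GHMT array, which was not replicated within its set. The blocked arrays were lower in each set, with a fitted difference of -2.08 ± 0.41 (SE, 95% interval -3.01 to -1.16, adjusted p = 0.087 by limma) that 3 arrays under background enter. Without GHMT replicate 1 it was -2.51 and passed (adjusted p = 0.0154 by limma, the lowest of its alternatives, which ran up to 1).

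Spon1, F-spondin, a secreted protein first studied in axon guidance, was the member that lay higher with the route blocked. In set 1 it was at 9.32 with GHMT, 10.74 with diclofenac, 10.82 with the EP4 antagonist and 7.46 with diclofenac plus PGE2. Set 2 gave 7.42 with GHMT, 7.95 with the EP4 antagonist, 7.21 with the TGFb inhibitor and 8.51 with the Wnt inhibitor. The blocked arrays were higher than the active ones in each set, and diclofenac plus PGE2 was 9.71-fold lower than diclofenac alone and at -1.86 from GHMT. The range of 3.36 over the 4 arrays of set 1 was matched or exceeded by 0.0706% of named genes above background on at least 1 array. The fitted difference was 1.77 ± 0.47 (SE, 95% interval 0.73 to 2.81, adjusted p = 0.22 by limma) and did not pass. It was 1.06 without the diclofenac plus PGE2 array.

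Postn, periostin, a fasciclin-domain protein that helps crosslink collagen, was highest in set 1 with GHMT. It was at 13.33 with GHMT, 12.57 with diclofenac, 12.08 with the EP4 antagonist and 12.37 with diclofenac plus PGE2. With PGE2 added to diclofenac, Postn was at -0.20 from diclofenac alone and at -0.96 from GHMT, where Fbln1 was at 1.36 and -0.33. In set 2 it was at 11.28 with GHMT and 11.53 with the EP4 antagonist, and the fitted difference was -0.27 ± 0.27 (SE, 95% interval -0.87 to 0.34, adjusted p = 0.863 by limma).

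Sparc, a collagen-binding protein also called osteonectin, was at 19.35, 19.42, 19.36 and 19.50 in set 1 for GHMT, diclofenac, the EP4 antagonist and diclofenac plus PGE2. Thbs1, thrombospondin 1, which can release TGFb from its latent form, was at 18.56, 18.63, 18.54 and 18.78 in the same order. Neither moved by more than 0.24 in set 1, and their fitted differences had intervals of -0.35 to 0.30 for Sparc and -0.29 to 0.46 for Thbs1. Both lay near the top of the scale, where the highest cluster of an array was at 19.78 to 19.93, and whether differences are compressed there was not tested.

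Fn1 was at 18.46, 18.32, 18.35 and 18.70 in set 1, again for GHMT, diclofenac, the EP4 antagonist and diclofenac plus PGE2, and at 17.93 and 17.44 in set 2 for GHMT and the EP4 antagonist. Its blocked arrays lay below the active ones in each set, with a fitted difference of -0.33 ± 0.16 (SE, 95% interval -0.67 to 0.02, adjusted p = 0.61 by limma). In all, 5 members (Fbln1, Fbln2, Tnc, Tnn, Fn1) had blocked arrays below all active ones within each set, where 10.6% of all clusters did, and 1 (Spon1) had them above, where 9.43% did. The median difference of the 10 genes was -0.29, and that of all named genes -0.01.

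**Figure D2:**
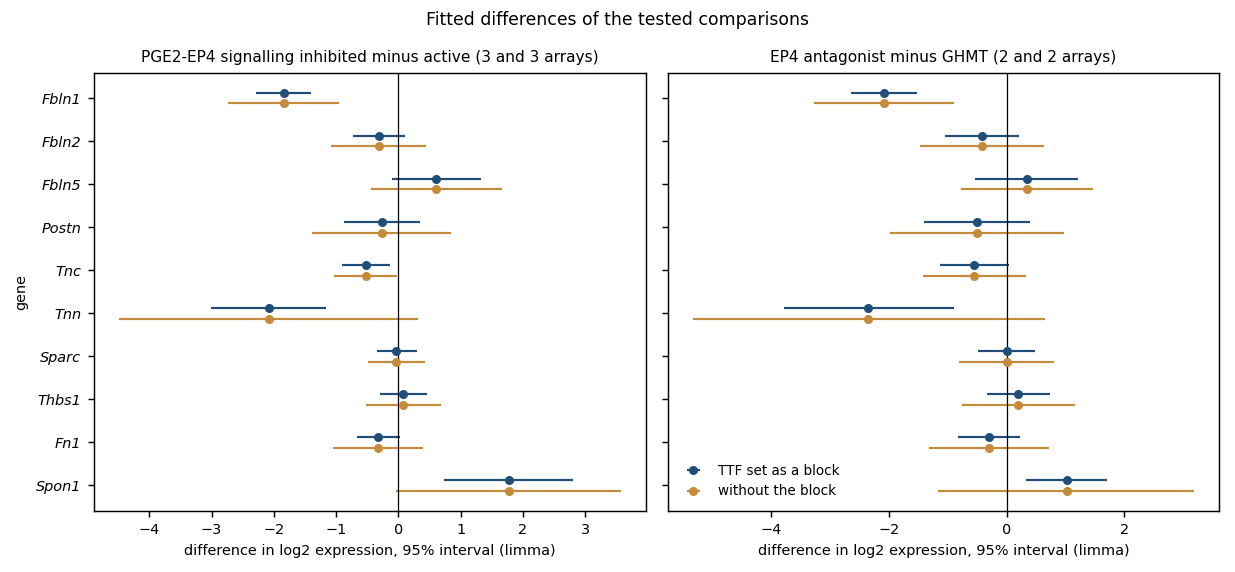
Fitted differences in log2 expression (x axis, points) with 95% intervals (bars) by limma for the 10 genes, for blocked minus active PGE2-EP4 signalling (left, 3 and 3 arrays) and the EP4 antagonist minus GHMT (right, 2 and 2 arrays), blue for fits that hold the TTF set as a block and orange for fits without it. The intervals of Fbln1 lie below 0 in all 4 fits, and the interval of Tnn narrows most when the block is used.

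The role of the receptor was addressed by the EP4 antagonist against GHMT alone (2 and 2 arrays, the TTF set as a block), which are 4 of the 6 arrays above. The difference of Fbln1 was -1.82 in set 1 (3.53-fold) and -2.35 in set 2 (5.10-fold), and the fitted difference was -2.09 ± 0.23 (SE, 95% interval -2.64 to -1.53, adjusted p = 0.419 by limma). It was called after quantile normalization between arrays (adjusted p = 0.00959 by limma) and under a robust prior with a trend (0.0251). It was also called without the block when EP4 antagonist replicate 1 was left out (-2.73, adjusted p = 0.0176 by limma), which leaves arms partly from different sets. Its adjusted p ran up to 1 over the other alternatives. No member and 0% of all clusters passed by limma, with 1243 clusters at an unadjusted p under 0.05.

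For scale, the antagonist's contrast differed between the sets with a spread of 0.368 for 1 contrast (root mean square over 9104 clusters above background). The spread was 0.375 for Fbln1, 0.269 for Fn1 and 0.481 for Tnc, against 1.03 for Fbln5, 1.06 for Postn and 1.92 for Tnn. Fbln5 and Postn thus lay past the 95th percentile of these clusters, 0.735, and Fbln1 close to the average. Tnn was past that percentile too, but it is not such a cluster. It was under background on both set 1 arrays of this contrast (5.16 with GHMT, 4.17 with the antagonist). With the antagonist, 3 of the 10 genes were at least 2-fold apart from GHMT in set 1 (Fbln1 and Postn lower, Spon1 higher), where 1.60% of all clusters were (2.68% of those above background on either array). In set 2 there were 3 (Fbln1 and Tnn lower, Fbln5 higher), where 2.74% of all clusters were (4.16% of those above background).

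Diclofenac, which acts on PGE2 synthesis, gave values close to those of the antagonist in set 1. Fbln1 was 3.23-fold lower and Spon1 2.68-fold higher than with GHMT, and these were the 2 members at least 2-fold apart, where 1.81% of all clusters were (2.99% of those above background on either array). Postn was at -0.76 with diclofenac and -1.25 with the antagonist, and Tnc at -0.76 and -0.89. Both treatments were set against the same GHMT array. With 1 array each these differences have no replicate check.

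Diclofenac plus PGE2 was at least 2-fold apart from diclofenac alone by measured values for 4 of the 10 genes, 3 of them with both arrays above background, where 2.16% of all clusters were (3.99% of those above background on either array). Fbln1 was higher, and Tnn too, but from under background and without clearing that level, so that no fold is given. Fbln5 (2.22-fold) and Spon1 (9.71-fold) were lower. Fbln5 and Spon1 were also the 2 members at least 2-fold below GHMT (2.73-fold and 3.63-fold), where 1.81% of all clusters were at least 2-fold apart (3.06% of those above background). From GHMT, Fbln1 was at -0.33, Tnc at -0.29 and Fn1 at 0.24, while Fbln5 was at -1.45 and Spon1 at -1.86.

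**Figure D3:**
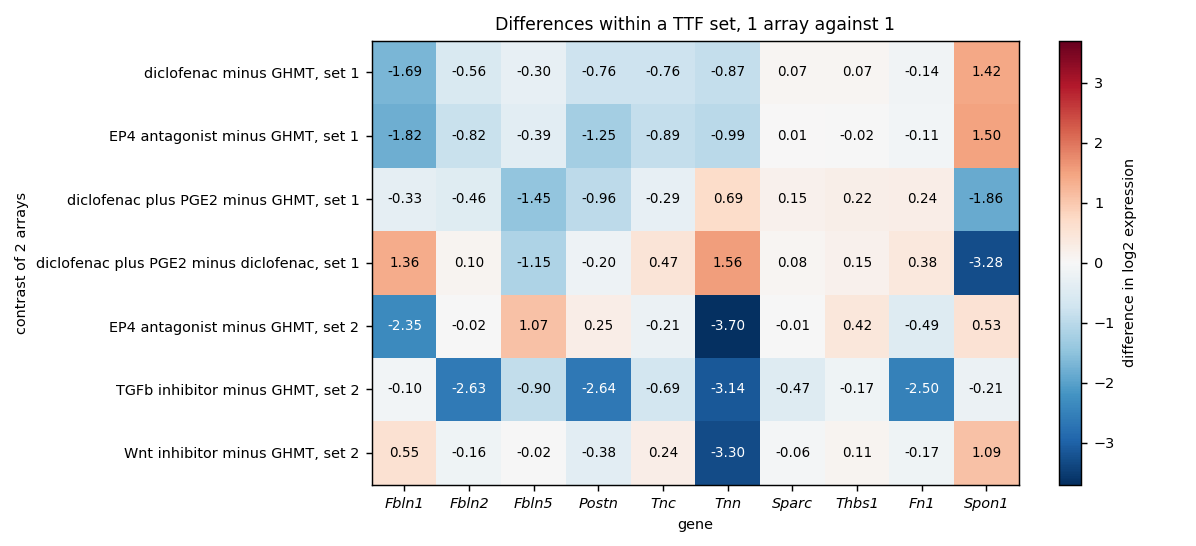
Differences in log2 expression (colour scale and printed values) between 2 arrays of the same TTF set, for 7 contrasts (rows) and the 10 genes (columns), 1 array against 1. Fbln1 is negative in the 2 EP4 antagonist rows (-1.82 and -2.35) and close to 0 in the TGFb inhibitor row (-0.10), where Fbln2, Postn and Fn1 are at -2.63, -2.64 and -2.50.

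The TGFb inhibitor was compared with GHMT in set 2, with 1 array each and so with no test. All 10 genes lay below GHMT, with a median of -0.80 against -0.01 for all named genes. Of the 10, 4 were at least 2-fold lower, where 5.36% of all clusters were at least 2-fold apart and 2.52% lower (9.52% apart among clusters above background on either array). Postn was 6.23-fold lower (8.64 against 11.28), Fbln2 6.19-fold lower (11.55 against 14.18), Fn1 5.66-fold lower (15.43 against 17.93) and Tnn 8.82-fold lower. For Postn, Fbln2 and Fn1 the other 3 arrays of set 2 lay within 0.63, 0.16 and 0.49 of each other, so the TGFb inhibitor array stood apart from them.

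The remaining 6 differed less. Fbln5 was at -0.90, Tnc at -0.69, Sparc at -0.47, Spon1 at -0.21, Thbs1 at -0.17 and Fbln1 at -0.10. The TGFb inhibitor array was the lowest of set 2 for 8 of the 10 genes (all but Fbln1 and Tnn), where it was the lowest for 24.7% of all clusters. It was the lowest of all 8 arrays for 6 (Fbln2, Postn, Tnc, Sparc, Fn1 and Spon1), where it was for 16.6% of all clusters. The fibroblast markers went both ways on this array, with 4 below GHMT, among them Col1a2 (-2.81), Col1a1 (-1.48) and Col3a1 (-1.20), and 5 above, among them Dpt (2.30), Thy1 (1.23) and Dcn (1.15). Of 6 smooth muscle and myofibroblast markers 4 were below GHMT, with Cnn1 at -1.96, Smtn at -1.56 and Tagln at -1.14. All 10 cardiomyocyte markers were above it, 4 of them at background on all arrays. The part of these in the result was not tested.

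Direct TGFb response genes were measured beside them. Of 7 matched, 6 were at least 2-fold lower with the inhibitor by measured values (median -1.98). Among them were Pmepa1, a feedback inhibitor of TGFb signalling, at -3.88 and Skil, a repressor of Smads, at -2.34. Ldlrad4, also among the 6, went down to background (4.61). The remaining gene, Smad7, was at 0.11. Fbln1 and Fbln2, both fibulins, were low on different arrays, Fbln1 on the 3 with PGE2-EP4 signalling blocked and Fbln2 on that of the TGFb inhibitor. Whether these responses differ was not tested, since the TGFb inhibitor has 1 array.

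The Wnt inhibitor, against the same GHMT array, left 8 of the 10 genes less than 2-fold apart. Tnn was 9.85-fold lower and Spon1 2.13-fold higher, where 4.10% of all clusters were at least 2-fold apart (6.79% of those above background on either array). Fbln1 was at 0.55, Postn at -0.38, Tnc at 0.24, Fn1 at -0.17, Fbln2 at -0.16, Thbs1 at 0.11, Sparc at -0.06 and Fbln5 at -0.02. The Wnt inhibitor array was the highest of set 2 for Fbln1, Tnc and Spon1. Axin2, a feedback gene of Wnt signalling, was at least 1.95-fold lower on it, down to background. It was the only 1 of 7 matched Wnt response genes at least 2-fold apart from GHMT. Of the 7, 3 were lower and 4 higher (3 of these at background on all arrays). The median was 0.34 over all 7 and -0.16 without the 3 at background.

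The GHMT arrays of the 2 sets differed for 3 of the 10 genes at least 2-fold, where 13.7% of all clusters did (18.3% of those above background on either array). Tnn was at least 15.9-fold higher in set 2, from background in set 1, Postn was 4.14-fold lower and Spon1 3.73-fold lower. Set 2 minus set 1, the median difference was -0.16 over all clusters and 0.22 over those above background on either array, and the array medians spanned 5.28 to 5.29 for set 1 and 5.10 to 5.14 for set 2.

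Likeness to other genes was measured as the root mean square distance between log2 values centred within each set, over the 8 arrays, among 9678 named genes above background on at least 1 array. For Fbln1 the nearest gene was Vcan, the large proteoglycan versican, at 0.376. Vcan was at 11.49, 10.25, 10.46 and 12.02 in set 1 and at 12.64 and 10.96 in set 2 for GHMT and the EP4 antagonist, low on the same 3 arrays as Fbln1. Bace2, a membrane protease, and Slc6a17, a transporter, came next at 0.435 and 0.441.

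For Fbln2 the nearest genes were Sertad4 (0.157), Postn (0.186) and Pdgfrl (0.191), and for Postn they were Fbln2 (0.186), Bcat1 (0.228) and Cdh3 (0.263). For Fn1 they were Adamts6, a secreted protease (0.123), Skil (0.142) and Ptprn (0.172). On the TGFb inhibitor array Adamts6 (5.26) and Pdgfrl (5.74) were under background. Without the TGFb inhibitor array the distances changed little, 0.186 becoming 0.199 for Fbln2 and Postn, but many other genes then lay as close. Postn moved from place 2 to place 901 for Fbln2, while Fbln2 moved from place 1 to place 32 for Postn. Sertad4 moved from place 1 to place 89 for Fbln2 and Adamts6 from place 1 to place 386 for Fn1. The 3 neighbours of Fbln1 moved less, to places 5, 9 and 10.

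Fbln5 was nearest to Cmklr1, a chemerin receptor (0.144), Gask1b (0.234) and Adgrg6, an adhesion receptor (0.239). Cmklr1 had the same highest and lowest arrays as Fbln5 within each set. It was at 7.77 with GHMT and 6.71 with diclofenac plus PGE2 in set 1, and at 7.66 with the EP4 antagonist and 5.81, under background, with the TGFb inhibitor in set 2. Spon1 was nearest to Rbm20, a splicing factor of heart muscle (0.384), and to Opcml (0.408) and Ntm (0.413), which encode related surface proteins of neurons. In set 2 Opcml was under background with GHMT (5.14), the EP4 antagonist (5.58) and the TGFb inhibitor (5.65). Ntm was under background there with GHMT (5.24) and the TGFb inhibitor (5.86). Tnn was nearest to Hhip, an inhibitor of hedgehog signalling, at 0.520, with Mcpt8 (0.578) and Cxcl14 (0.581) next. Like Tnn, Hhip and Cxcl14 were under background in set 1 with GHMT, diclofenac and the EP4 antagonist. Their values there were 5.11, 4.83 and 4.80 for Hhip and 5.34, 4.78 and 4.43 for Cxcl14. In set 2, unlike Tnn, Hhip was under background with the EP4 antagonist (5.55), the TGFb inhibitor (5.94) and the Wnt inhibitor (5.08). Mcpt8 was under background with diclofenac (4.70) and the antagonist (4.42) of set 1.

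Relatives of the 10 genes came from lists of the fibulin, tenascin, thrombospondin and spondin, SPARC and fasciclin families, of elastic fibre genes, of receptors and crosslinkers, and of proteases, with a short check list each for TGFb and Wnt. In all, 82 of 88 symbols were matched, and 12 of the 73 that are no members lay at background on all arrays. In the test of blocked against active signalling, 4 of these 73 were called by limma, where 0.378% of all clusters were. Tgfbi, the fasciclin-domain relative of Postn, fell by 2.03 (adjusted p = 0.00856 by limma), although Postn itself did not pass. Mmp3, a protease that cuts fibronectin, fell by 1.63 (adjusted p = 0.00982 by limma). Htra1, a secreted serine protease that also cuts fibronectin, rose by 1.12 (adjusted p = 0.022 by limma). Spon2, the relative of Spon1, fell by 1.25 (adjusted p = 0.0433 by limma), but was above background on only 2 arrays, those of GHMT and of diclofenac plus PGE2 in set 1. None of the 4 was called without the block, where 0 clusters were.

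With the TGFb inhibitor 19 of the 73 were at least 2-fold lower and 9 at least 2-fold higher by measured values, with a median of -0.12, where 2.52% of all clusters were lower and 5.36% apart in either direction. The 73 include the TGFb check list, which was picked as TGFb response genes. Of its 7 matched genes, 6 were among those at least 2-fold lower. Adamts4 and Spock3, also counted as lower, were under background on both arrays. Except for the fasciclin pair, the genes within families went both ways. Efemp1, a fibulin also called fibulin 3, was at 1.35, against -2.63 for Fbln2. Tnxb, the tenascin of loose connective tissue, was at least 1.73-fold higher, from background, against -0.69 for Tnc. Among SPARC relatives Sparcl1 was at 1.69 and Smoc2 at -2.43, and Tgfbi, like Postn, was low at -3.23. Of 15 elastic fibre genes 5 were at least 2-fold lower and 0 higher, among them Lox, which crosslinks elastin and collagen (-1.62), Ltbp2 (-1.58) and Fbn2, a fibrillin (at least 3.83-fold lower, down to background). Of 16 receptors and crosslinkers 3 were lower and 4 higher, Itgb3 (at least 3.48-fold lower, down to background) and Itgb5 (-1.39) against Itga8 (1.24), all of them integrin subunits. Among the proteases Mmp3 was at -2.12 and Adamts5 at 1.5.

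With the Wnt inhibitor 9 of the 73 were at least 2-fold higher and 3 at least 2-fold lower by measured values, with a median of 0.30, where 4.10% of all clusters were apart. Axin2, from the Wnt check list, was among the 3 lower. Thbs1 was at 0.11, but its relatives Thbs4 (2.19) and Comp, the cartilage thrombospondin (at least 3.47-fold, from background), were higher. Sparcl1 was at 2.06 where Sparc was at -0.06. Itga8 was at 2.06 and Mmp3 at 1.91, and Fbn2 was at least 3.92-fold lower, down to background.

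**Figure D4:**
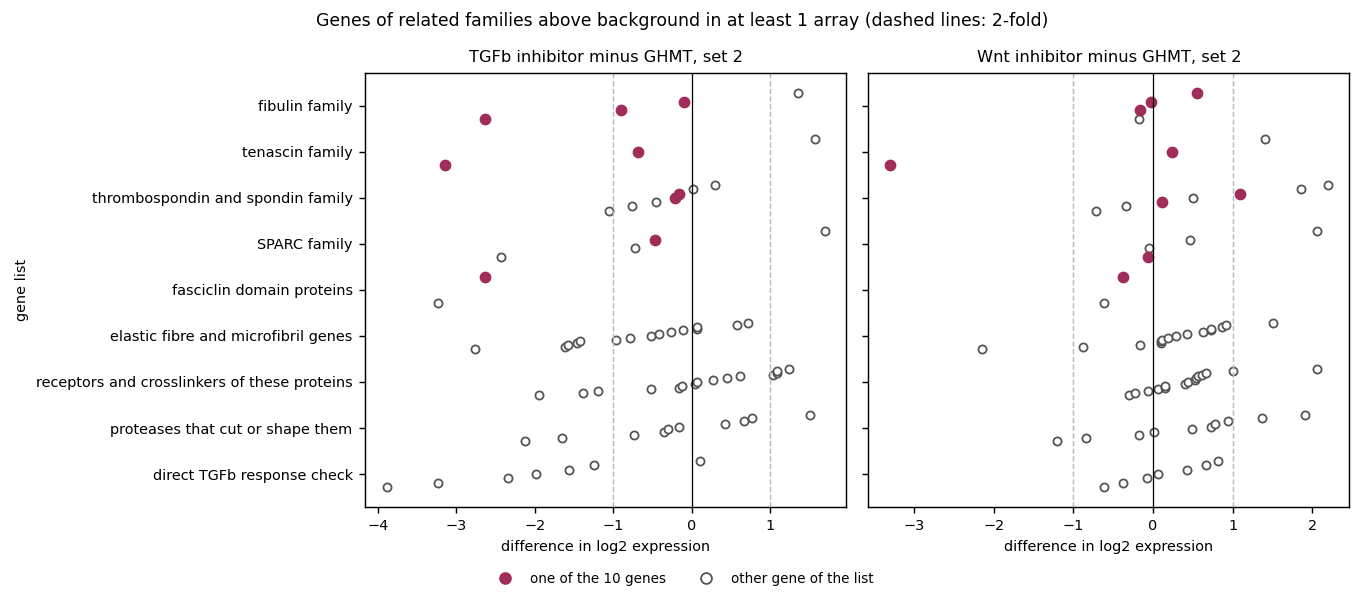
Differences in log2 expression from GHMT (x axis) in set 2 for the TGFb inhibitor (left) and the Wnt inhibitor (right), 1 array against 1. Rows are 9 gene lists, with the genes above background on at least 1 array. Filled points are those of the 10 genes that are in a list (all but Fn1, which is not shown). Open points are the other genes of the lists. Dashed lines are at 2-fold, and points are offset vertically within a row by rank. Filled points lie left of 0 throughout the left panel, while open points of the same families lie on both sides.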

How the data were processed

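Total RNA of 8 cultures went onto Clariom S arrays for mouse, 1 sample each. The deposited values are log2 expression values, which the authors obtained by SST-RMA, a normalization and probe-set summary method, with Affymetrix Expression Console 1.4, per the labels and the submitters' processing notes. The genome build is not given in the sources used here, nor whether both sets were normalized together. The table held 28846 rows, of which 6640 control rows were left out and 22206 transcript clusters kept. Of these, 19572 had 1 gene symbol (19505 symbols, with the brightest cluster taken for the 55 that have several) and 2634 are unnamed here.

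Groups and TTF sets came from the titles. Two-sided tests were run with limma 3.58.1 (lmFit, eBayes; R 4.3.3), and p-values were adjusted over all clusters by Benjamini and Hochberg's method, with a threshold of 0.05. The TTF set was a block, since the titles number the fibroblasts by set. Arrays correlated at 0.986 to 0.995 within and 0.974 to 0.984 between sets, a principal component with 56.6% of the variance split them, and GHMT and EP4 antagonist arrays of the same set deviated together from their groups (correlation 0.724 across clusters). Contrasts of 1 array with 1 were differences of log2 values, counted at 2-fold, with no test. A gene was at background under the 95th percentile of the 23 background probe sets of its array, and a fold against such an array is a lower bound against that level. The fit was checked on simulated data.

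All 10 members are named in each comparison. Of related lists, the genes called in a test are named, with at most the 3 largest of each list per single-array contrast from 2-fold on, and of like genes the 3 nearest for members with a within-set range of at least 1. The members, lists, tests and the background rule were chosen with earlier results of these data known. Alternatives were the fit without the block, quantile normalization, median centring, a trend and robust prior, a background filter, a 1.5-fold threshold and leaving out each array. List symbols without a match were not analysed here, and protein sequences were not used here.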

Additional observations from a re-analysis of the deposited data

Results flagged for a closer look

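The EP4 antagonist's difference from GHMT had opposite signs in the 2 TTF sets for 4 of the 10 genes. With 1 array per group in each set, the difference between the sets was not tested. For Postn, set 2 minus set 1 was 1.5, from -1.25 in set 1 to 0.25 in set 2. For Fbln5 it was 1.46, from -0.39 to 1.07. Thbs1 was at -0.02 and 0.42, 0.44 apart. Sparc was at 0.01 and -0.01, which is -0.02 apart. As the spread of 1 contrast that is 0.0141, below the median of 0.219 over clusters above background.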

How the results depend on the processing

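For blocked against active PGE2-EP4 signalling, the 84 clusters and 1 member called with the TTF set as a block became 0 and 0 with no replicate block, and 143 clusters were called with a trend and robust prior. Leaving out 1 array gave 0 to 192 clusters and 0 to 3 members (3, Fbln1, Fbln5 and Tnn, without GHMT replicate 1), and 0 to 3 clusters and 0 members without the block. Signs turned in leave-outs for Postn (-0.52 to 0.08, or -0.79 to 0.23 without the block), Sparc (-0.07 to 0.02, or -0.06 to 0.03) and Thbs1 (-0.09 to 0.19, or -0.17 to 0.23 with -0.01 without GHMT replicate 1). For the EP4 antagonist against GHMT, where 0 clusters and members were called with and without the block, quantile normalization gave 31 clusters and 1 member (Fbln1), a trend and robust prior 8 and 1 (Fbln1), and median centring and the background filter 1 cluster each. Leaving out 1 array with the block leaves the pair of arrays of 1 set and no test. Without the block the leave-outs compare arms partly from different sets. They gave 1 to 25 clusters (21 without GHMT replicate 1, 16 without EP4 antagonist replicate 2) and 0 to 1 members (Fbln1 without EP4 antagonist replicate 1, and Tnn without GHMT replicate 1 or EP4 antagonist replicate 2), and the sign turned for Fbln2 (-0.98 to 0.14), Fbln5 (-0.31 to 0.99), Postn (-1.53 to 0.53), Thbs1 (-0.20 to 0.59), Fn1 (-0.76 to 0.15) and Spon1 (-0.42 to 2.45).

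At 1.5-fold the single-array contrasts counted 2413 clusters for diclofenac, 2303 and 2845 for the EP4 antagonist in sets 1 and 2, 2323 and 2315 for diclofenac plus PGE2 against GHMT and diclofenac, 3669 for the TGFb inhibitor, 3706 for the Wnt inhibitor and 8672 between the GHMT arrays. At 2-fold, the background filter left 1925 of the 3041 clusters between the GHMT arrays. At 1.5-fold, the members counted were 5 for diclofenac, 6 for the EP4 antagonist in set 1 and 4 for diclofenac plus PGE2 against GHMT. The causes of these changes were not tested. Averaging all clusters of a symbol could not change a value, since each member has 1 cluster.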
